A study of Drosophila melanogaster with 12 samples.

Results

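The elements described here are the long terminal repeat (LTR) retrotransposons mdg1, mdg3, DM412, blood, micropia and Stalker of Drosophila melanogaster, as small RNA signal in ovaries and testes. Members were all entries of the transposable element class (TE class) whose name starts with MDG1, MDG3, DM412, BLOOD, MICROPIA or STALKER, for the internal part and for the LTR, on each strand. The rule gave 15 names and 30 entry strands in the ovary table, of 384 entry strands in the TE class and 968 in the table. In the testis table it gave 15 names and 29 entry strands, of 298 in the TE class and 845 in all, with BLOOD_LTR Minus not listed. DM412, BLOOD, MICROPIA, STALKER2 and STALKER4 each had an internal entry (suffix _I) and an LTR entry, as did MDG1. MDG3 had the single entry MDG3_DM, STALKER3 an LTR entry, and DM412 a further LTR entry, DM412B_LTR.

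An LTR retrotransposon is copied through an RNA intermediate. Its internal part encodes the Gag and Pol proteins, and the 2 LTRs that flank it carry the start and the end of transcription. All of these elements belong to the gypsy-type LTR retrotransposons. The first blood insertion was found in an allele of the white eye colour gene, and micropia was first described in Drosophila hydei. In fly gonads such elements are held down by Piwi-interacting RNAs (piRNAs), small RNAs that are mostly antisense to the element and guide Piwi proteins to its transcripts. The entries named Minus and Plus are the 2 strands as the tables list them. Minus is antisense only if an entry runs in the direction of transcription, which the labels do not state, and the tables give no read length, so piRNAs cannot be told apart from other small RNAs.

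Small RNA libraries were made from total RNA of gonads of 2-day-old flies reared at 23 °C with a 14-hour light cycle on molasses medium, and 12 libraries were sequenced together for 50 cycles. The ovary groups were XXYcongo and XXYohio females, which carry an added Y chromosome named Ycongo or Yohio, and XX control females without a Y. In every genotype, testis groups included, the labels set a caret after the first X, which is left out here and is not explained in them. The testis groups were XYYcongo and XYYohio males, with an added Y of the same names beside their own, and XY control males. Each of the 6 groups had 2 replicates, called biological in the labels, with nothing said of how many animals each pooled. The table columns headed Cs were taken as the Yohio groups by elimination.

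Each ovary library held 897596 to 2663239 reads outside the spike-ins and each testis library 589490 to 1310076, of which the members took 20974 to 130765 in ovaries and 2911 to 14082 in testes. The XXYcongo libraries stood apart: TE class reads made up 45.4% and 42.1% of reads in XXYcongo ovaries, 22.9% and 29.2% in XXYohio ovaries and 25.8% and 22.4% in XX ovaries. Reads from ribosomal DNA made up 36.5% and 37.1% in XXYcongo ovaries and 51.4% to 61.5% in the other ovary libraries. The Minus strand of Suste, the Y-linked Suppressor of Stellate repeats, had values on the deposited scale of 6842 and 10817 in XXYcongo ovaries, 4291 and 5726 in XXYohio ovaries and 440.0 and 381 in XX ovaries. All values below are on the deposited scale, unless a share or a log2 difference is named. On that scale the reads of each library are multiplied by a constant, so values outside XX and XY replicate 1 are not read counts. A single read has a value of 0.387 and 0.441 in the XXYcongo ovary libraries.

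With the deposited scaling, small RNAs of 27 of the 30 entry strands were higher in XXYcongo than in XX ovaries and none was lower (limma, Benjamini-Hochberg adjusted p under 0.05). This was against a background of 45.5% higher and 4.3% lower over the 791 features tested, and of 69.6% higher and 1.29% lower over the 309 other entry strands of the TE class. The median log2 difference, XXYcongo minus XX, was 1.39 for the members, 1.07 for the other TE class entries and 0.74 for all features, and the members ran from 0.25 to 2.29. In 27 of the 30, both XXYcongo libraries lay above both XX libraries, against 59.5% of all features, and 14% of all features lay the other way. All 7 internal Minus entries were higher (median 1.55), as were 6 of 7 internal Plus entries (1.40), 7 of 8 LTR Minus entries (1.28) and 7 of 8 LTR Plus entries (1.55). In whole ovaries, a change in the number of cells of a type and a change in small RNA per cell cannot be told apart.

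The size of this difference depends on how libraries are put on one scale. With TMM scaling, under which the median difference of all features was 0.01, 8 of the 30 members were higher and none lower. The member median was 0.63, and 22.6% of all features were higher and 18.7% lower. The 8 were MICROPIA_I on both strands, DM412_I on both strands, MDG3_DM Plus, MDG1_LTR Minus, MDG1_I Minus and BLOOD_I Minus. Scaled to the TE class total, at which the other TE class entries have a median of 0.00, 4 of the 30 members were higher and none lower (median 0.31), against 15.8% higher and 26.8% lower over all features, so the share called higher was near that of all features. The 4 were MDG1_LTR Minus by 1.21 on the log2 scale (adjusted p = 0.0431), MDG1_I Minus by 0.62 (0.0146), MICROPIA_I Minus by 0.50 (0.0489) and BLOOD_I Minus by 0.50 (0.0420). These 4 kept the limma, edgeR or DESeq2 call under all 12 alternative settings and all 6 omissions of 1 ovary library. Scaled to the TE class total, 3 of the 27, MICROPIA_LTR Plus, MDG3_DM Minus and BLOOD_LTR Minus, turned below 0 and were not called.

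**Figure D1:**
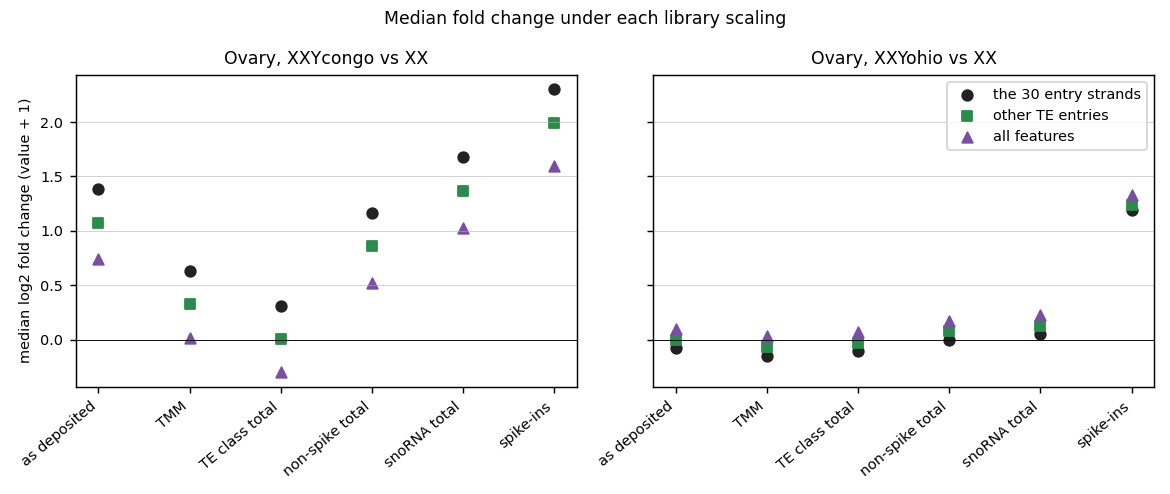
Median log2 difference of the 30 entry strands, of the other TE class entries and of all features tested in ovaries (y axis), under 6 ways of scaling the libraries (x axis), for XXYcongo against XX and XXYohio against XX. For XXYcongo against XX the member median lies above the median of all features under each of the 6, from 0.31 with the TE class total to 2.31 with the spike-ins; for XXYohio against XX it lies below it under each.

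Leaving out XX replicate 2 lowered the count of members higher in XXYcongo than in XX ovaries to 17, and the other omissions left 25 or 26. The summed small RNAs of 5 elements known as targets of piRNAs in the somatic cells of the gonad were also highest in XXYcongo ovaries. A sum does not show whether each of the 5 moved. On the deposited scale 69.6% of the other TE class entries were called higher in XXYcongo against XX ovaries (limma). The Minus entries of GYPSY_I, ZAM_I, IDEFIX_I, GTWIN_I and TABOR_I, 5 of 5 listed and none at 0, summed to 12074 and 9329 in XXYcongo ovaries, 2781 and 3742 in XXYohio ovaries and 3234 and 2950 in XX ovaries. Their share of TE class reads was 2.58% and 2.07% in XXYcongo, 1.37% and 1.56% in XXYohio and 1.40% and 1.47% in XX ovaries, and their part in the result was not tested.

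**Figure D2:**
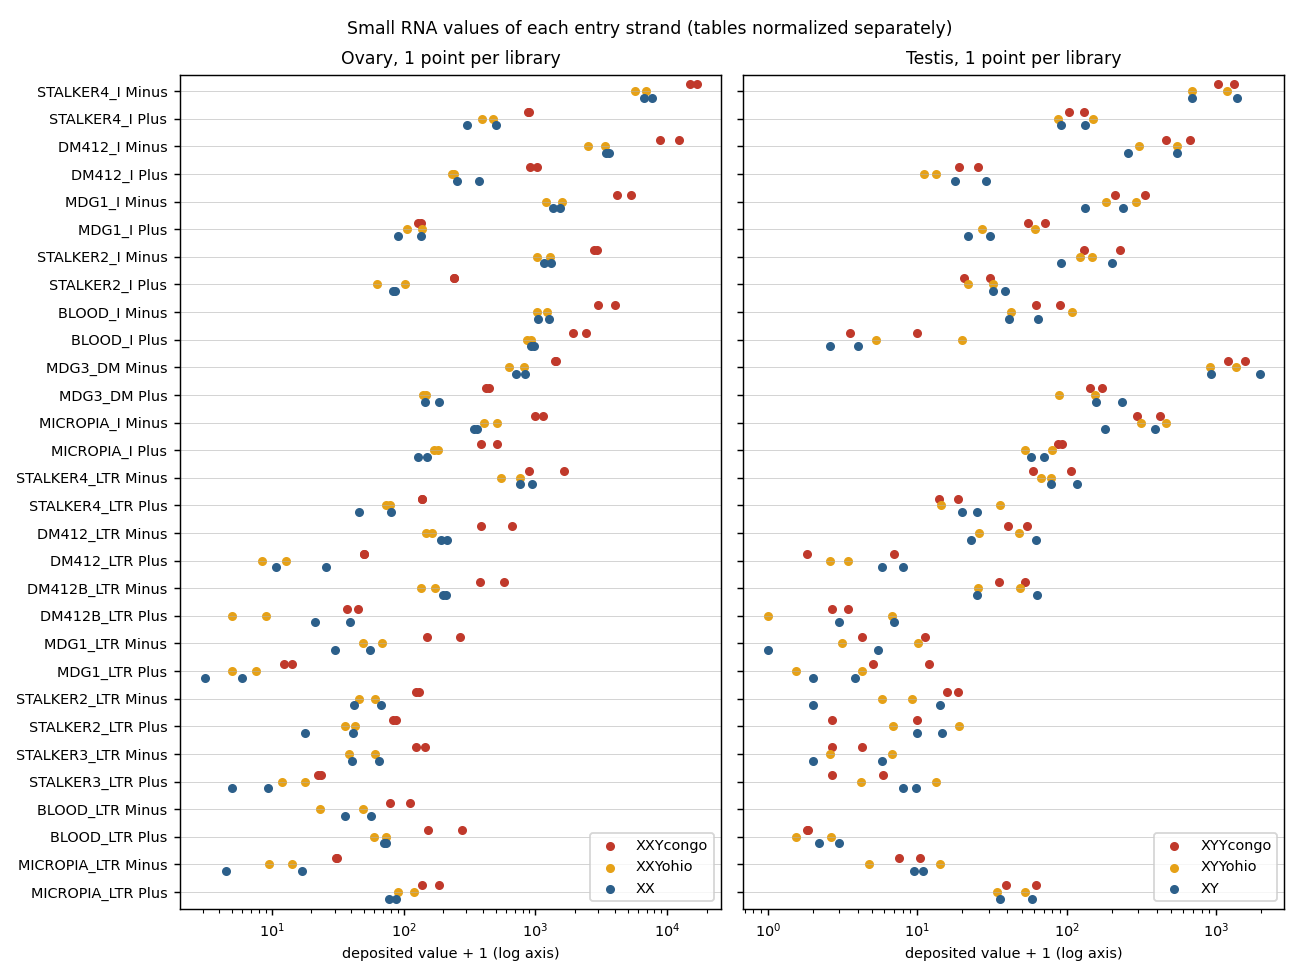
Deposited value plus 1 of every entry strand (rows) in every library (points, log x axis), for ovaries and testes, coloured by group. In ovaries the XXYcongo points lie to the right of the XX points in 27 of 30 rows; in testes the groups overlap in most rows.

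MDG1 gave the largest difference of any member between XXYcongo and XX ovaries. MDG1_LTR Minus had values of 268 and 150.1 in XXYcongo ovaries, 67.7 and 48.5 in XXYohio ovaries and 55 and 29.4 in XX ovaries. It was 4.89-fold higher in XXYcongo than in XX ovaries (log2 difference 2.29 ± 0.38 SE, limma adjusted p = 0.000337). The internal part on the same strand, MDG1_I Minus, had 5333 and 4171 in XXYcongo ovaries, 1195 and 1588 in XXYohio ovaries and 1531 and 1362 in XX ovaries. Both XXYcongo libraries lay far above the other 4, which were close to each other. The log2 difference of MDG1_I Minus was 1.71 ± 0.23 against XX (limma adjusted p = 6.47e-05) and 1.78 ± 0.23 against XXYohio (7.94e-05). MDG1_I Plus behaved otherwise, at 134 and 128 in XXYcongo ovaries, 105 and 137 in XXYohio ovaries and 89 and 135 in XX ovaries. Its 3 groups overlapped, and it differed from XX by 0.25 ± 0.30 (limma adjusted p = 0.523). The sparse MDG1_LTR Plus, at 13.1 and 11.5 in XXYcongo, 4.02 and 6.61 in XXYohio and 5 and 2.10 in XX ovaries, was called against XX (1.62, limma adjusted p = 0.0488). Its limma adjusted p ranged from 0.0502 to 0.212 without either XXYcongo replicate, either XXYohio replicate or XX replicate 2.

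The largest differences between XXYcongo and XXYohio ovaries were in DM412 entries. DM412_I Minus had values of 12175 and 8795 in XXYcongo ovaries, 2512 and 3386 in XXYohio ovaries and 3641 and 3441 in XX ovaries. DM412_I Plus had 911 and 1033 in XXYcongo, 242 and 233 in XXYohio and 375 and 255 in XX ovaries. On both strands the XXYcongo libraries were highest and the XXYohio libraries lowest, with no overlap between any of the 3 groups. XXYcongo exceeded XX by 1.55 ± 0.23 on the Minus strand (limma adjusted p = 0.000132) and by 1.65 ± 0.26 on the Plus strand (0.000204). XXYcongo exceeded XXYohio by 1.83 ± 0.23 (limma adjusted p = 6.09e-05) and 2.03 ± 0.26 (6.81e-05) on the same strands. XXYohio minus XX was -0.28 on the Minus strand (limma adjusted p = 0.576) and -0.38 on the Plus strand (0.490), which did not pass.

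The LTR entries of DM412 on the Minus strand followed the same order of groups. DM412_LTR Minus had values of 668 and 386 in XXYcongo ovaries, 146 and 162 in XXYohio ovaries and 212 and 193 in XX ovaries. DM412B_LTR Minus had 581 and 377 in XXYcongo, 135 and 172 in XXYohio and 210 and 199 in XX ovaries. The 2 LTR entries are variants of one element and may share reads, since the handling of reads with several matches is not given in the sources used here. XXYcongo was higher than XXYohio by 1.71 for DM412_LTR Minus (limma adjusted p = 0.000505) and by 1.61 for DM412B_LTR Minus (0.000566). DM412_LTR Plus had 49.5 and 49.0 in XXYcongo, 7.46 and 11.7 in XXYohio and 25 and 9.79 in XX ovaries. It was higher in XXYcongo than in XXYohio ovaries by 2.27 (limma adjusted p = 0.00192) and than in XX ovaries by 1.58 (0.0145), the last of which ended without XX replicate 2 (0.95, adjusted p = 0.141).

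DM412B_LTR Plus was the one member called in XXYohio against XX ovaries, and it was lower. It had values of 44.5 and 36.2 in XXYcongo ovaries, 4.02 and 8.08 in XXYohio ovaries and 38 and 20.3 in XX ovaries. The XXYcongo and XX libraries overlapped, and the XXYohio libraries lay below both. XXYohio minus XX was -2.09 ± 0.47 (limma adjusted p = 0.0251), and XXYcongo minus XXYohio was 2.61 ± 0.47 (0.000673). The last was the widest difference of any member between the 2 ovary groups with an added Y. In reads, DM412B_LTR Plus had only 7 and 11 in XXYohio ovaries, against 38 and 29 in XX and 115 and 82 in XXYcongo ovaries. The fall against XX kept its sign but not its call without XXYohio replicate 1 (-1.67, limma adjusted p = 0.237), without XX replicate 1 (-1.66, 0.309), with spike-in scaling (-0.93, 0.421), with snoRNA scaling (-1.96, 0.0565) and in edgeR (-2.33, 0.0591).

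BLOOD_I was higher in XXYcongo ovaries on both strands. BLOOD_I Minus had values of 4015 and 2964 in XXYcongo ovaries, 1035 and 1216 in XXYohio ovaries and 1258 and 1049 in XX ovaries. BLOOD_I Plus had 1931 and 2439 in XXYcongo, 929 and 861 in XXYohio and 970 and 930.0 in XX ovaries. On both strands the 2 XXYcongo libraries lay above the other 4 libraries. XXYcongo exceeded XX by 1.59 ± 0.23 on the Minus strand (limma adjusted p = 0.000125) and by 1.19 ± 0.22 on the Plus strand (0.000683). Against XXYohio the differences were 1.62 ± 0.23 (limma adjusted p = 0.000181) and 1.28 ± 0.22 (0.000563). The Minus strand call against XX was kept under all 12 alternative settings. The Plus strand call was kept under 8 of the 12, and its lowest difference under any setting or omission of a library was 0.10. The blood LTR gave more Plus than Minus reads. BLOOD_LTR Plus, at 153 and 275 in XXYcongo, 58.5 and 72.7 in XXYohio and 73 and 69.9 in XX ovaries, was higher in XXYcongo than in XX ovaries by 1.51 (limma adjusted p = 0.00182). BLOOD_LTR Minus, at 111 and 77.2 in XXYcongo, 22.4 and 48.5 in XXYohio and 56 and 35.0 in XX ovaries, just passed (1.04, adjusted p = 0.0485). That call ended without XXYcongo replicate 1 (0.79, limma adjusted p = 0.123) or XX replicate 2 (0.71, 0.274).

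STALKER4_I Minus took the most reads of the members in each ovary library. It had values of 14965 and 16713 in XXYcongo ovaries, 5728 and 6898 in XXYohio ovaries and 7725 and 6649.7 in XX ovaries. STALKER4_I Plus had 879 and 889 in XXYcongo, 393 and 478 in XXYohio and 500 and 303 in XX ovaries. The XXYcongo libraries were the highest on both strands, and the XXYohio and XX libraries overlapped. XXYcongo minus XX was 1.14 ± 0.20 on the Minus strand (limma adjusted p = 0.000413) and 1.18 ± 0.27 on the Plus strand (0.00308). Each of these calls was kept under 8 of 12 alternative settings. The lowest difference under any setting or omission of a library was 0.05 for Minus and 0.09 for Plus. The Plus strand call ended without XX replicate 2 (0.82, limma adjusted p = 0.0533). XXYcongo minus XXYohio was 1.33 ± 0.20 on the Minus strand (limma adjusted p = 0.000231) and 1.03 on the Plus strand (0.00728). The last call ended without XXYohio replicate 1 (0.88, adjusted p = 0.0519), and its difference was -0.03 when scaled to the TE class total.

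The LTR of STALKER4 was less uniform between replicates. STALKER4_LTR Minus had values of 896 and 1642 in XXYcongo ovaries, 546 and 769 in XXYohio ovaries and 938 and 763 in XX ovaries. XXYcongo and XX overlapped, and XXYcongo minus XX was 0.52 ± 0.30 (limma adjusted p = 0.180), but 0.96 without XXYcongo replicate 1 (0.00919). STALKER4_LTR Plus, with 138 and 138 in XXYcongo, 78.1 and 72.7 in XXYohio and 80 and 44.8 in XX ovaries, was higher in XXYcongo than in XX ovaries by 1.19 (limma adjusted p = 0.00816). Without XX replicate 2 it did not pass (0.78, limma adjusted p = 0.0943).

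STALKER2, a related Stalker element that may share reads with STALKER4 for the same reason, was also highest in XXYcongo ovaries. STALKER2_I Minus had values of 2931 and 2795 in XXYcongo ovaries, 1028 and 1298 in XXYohio ovaries and 1310 and 1161 in XX ovaries. STALKER2_I Plus had 242 and 239 in XXYcongo, 62.0 and 102 in XXYohio and 85 and 82.5 in XX ovaries. The XXYcongo replicates were close to each other and above all others on both strands. XXYcongo minus XX was 1.21 ± 0.22 for STALKER2_I Minus (limma adjusted p = 0.000558) and 1.51 ± 0.30 for STALKER2_I Plus (0.00107). Over 12 alternative settings the Minus strand call was kept under 8 and the Plus strand call under 9. Against XXYohio the differences were 1.31 (limma adjusted p = 0.000473) and 1.58 (0.000986). The LTR entries STALKER2_LTR Plus (1.66), STALKER2_LTR Minus (1.24), STALKER3_LTR Plus (1.76) and STALKER3_LTR Minus (1.38) were also higher in XXYcongo than in XX ovaries, with limma adjusted p from 0.00385 to 0.0116. Without XX replicate 2, STALKER2_LTR Minus (0.90, limma adjusted p = 0.0743) and STALKER3_LTR Minus (1.05, 0.0585) no longer passed, and the value of STALKER2_LTR Plus fell to 1.06 (0.0459). Without XX replicate 1, STALKER3_LTR Plus no longer passed (1.31, limma adjusted p = 0.0637).

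MDG3_DM was higher in XXYcongo ovaries on both strands. MDG3_DM Plus had values of 446 and 418 in XXYcongo ovaries, 147 and 140.3 in XXYohio ovaries and 186 and 143 in XX ovaries. MDG3_DM Minus had 1413 and 1425 in XXYcongo, 634 and 817 in XXYohio and 840 and 713 in XX ovaries. XXYcongo was highest on both strands, without overlap with either other group. The log2 difference against XX was 1.40 ± 0.26 for MDG3_DM Plus (limma adjusted p = 0.000658) and 0.87 ± 0.23 for MDG3_DM Minus (0.00715). Against XXYohio it was 1.58 ± 0.26 (limma adjusted p = 0.000391) and 0.98 ± 0.23 (0.00375). The Minus strand call against XX ended without XX replicate 2 (0.76, limma adjusted p = 0.0711), and its difference was -0.22 against XX and -0.08 against XXYohio when scaled to the TE class total. The separate mdg3 LTR entry, LTRMDG3_DM, lies outside the naming rule. On its Minus strand it had 81.6 and 93.1 in XXYcongo, 55.1 and 64.6 in XXYohio and 67 and 60.1 in XX ovaries. Its Plus strand had 19.7 and 22.9 in XXYcongo, 19.5 and 19.8 in XXYohio and 22 and 13.3 in XX ovaries, where the groups overlapped.

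MICROPIA_I had similar differences on both strands. MICROPIA_I Minus had values of 1143 and 987 in XXYcongo ovaries, 409 and 509 in XXYohio ovaries and 344 and 362 in XX ovaries. MICROPIA_I Plus had 509 and 386 in XXYcongo, 169.9 and 181 in XXYohio and 150 and 129 in XX ovaries. None of the 3 groups overlapped on either strand, with XXYcongo highest and XX lowest. XXYcongo minus XX was 1.59 ± 0.24 for MICROPIA_I Minus (limma adjusted p = 0.000142) and 1.67 ± 0.26 for MICROPIA_I Plus (0.000209). XXYohio minus XX was 0.37 on the Minus strand (limma adjusted p = 0.460) and 0.34 on the Plus strand (0.570), and neither passed. The LTR gave mostly Plus reads. MICROPIA_LTR Plus had 183 and 137 in XXYcongo, 118 and 89.6 in XXYohio and 87 and 76.9 in XX ovaries and was higher in XXYcongo than in XX ovaries by 0.94 (limma adjusted p = 0.0162). The call ended without XXYcongo replicate 1 (0.73, limma adjusted p = 0.0986) or XX replicate 2 (0.86, 0.0873). MICROPIA_LTR Minus, at 30.1 and 29.6 in XXYcongo, 8.61 and 13.2 in XXYohio and 16 and 3.50 in XX ovaries, was also higher (1.82, limma adjusted p = 0.0218). Its value was 2.78 without XX replicate 1 and 0.86 without XX replicate 2, where it did not pass (0.210).

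**Figure D3:**
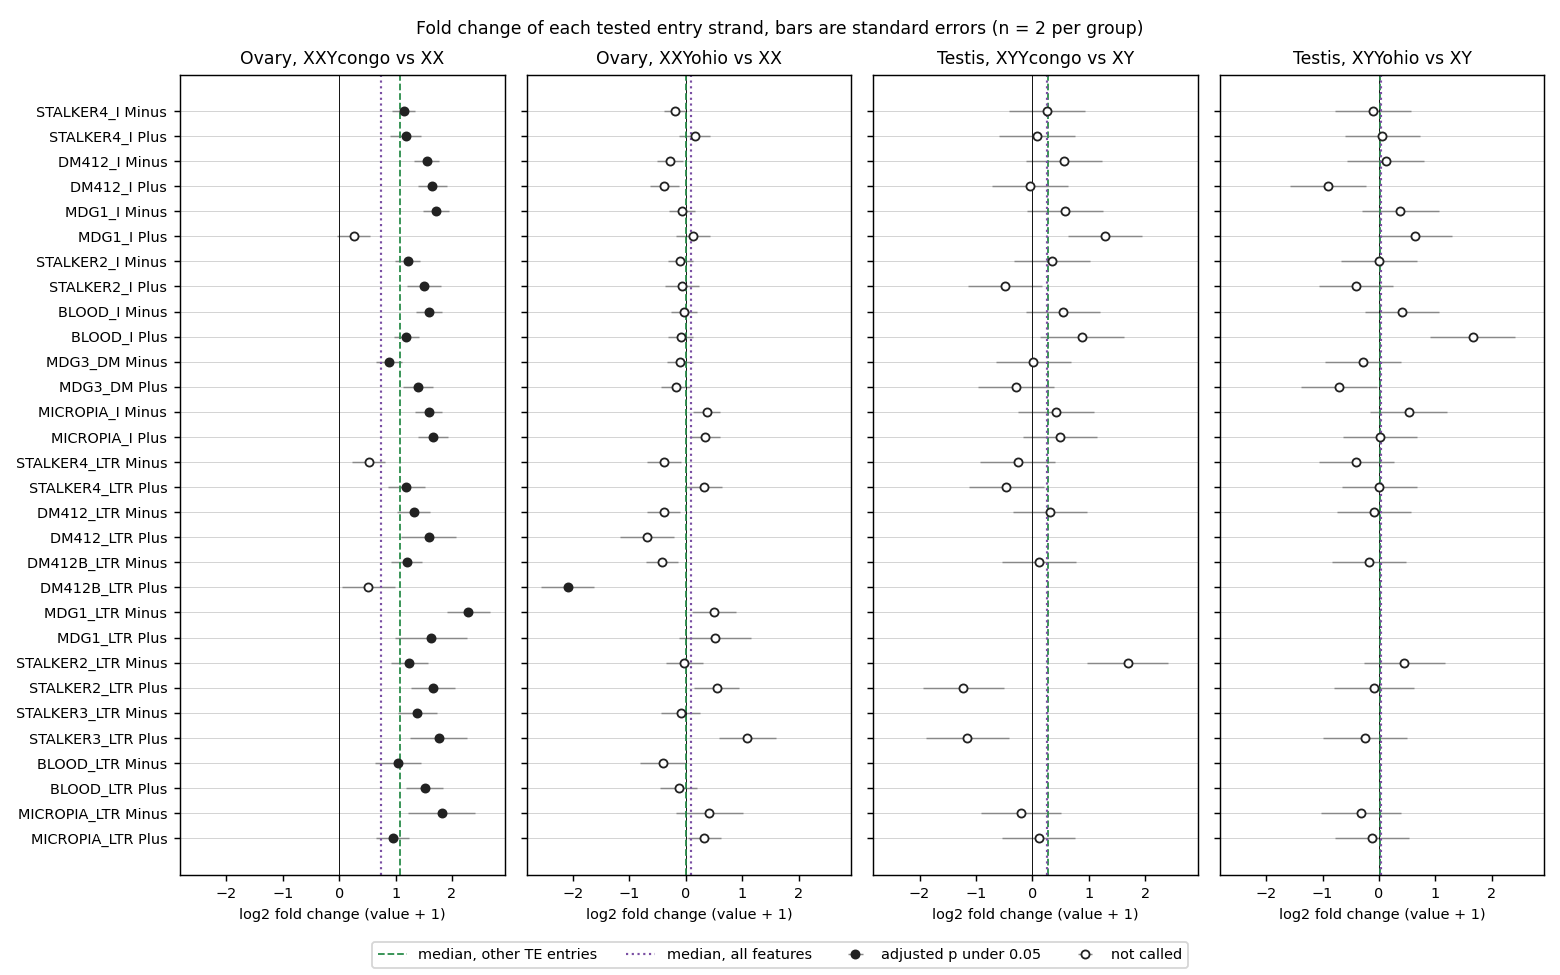
Log2 difference (x axis) of each tested entry strand (rows) in 4 comparisons, with bars for the standard error and filled points for a limma adjusted p under 0.05. Dashed lines mark the median of the other TE class entries and dotted lines that of all features; in XXYcongo against XX 27 of 30 points are filled on the deposited scale, in XXYohio against XX 1 is, and in testes none is.

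Between the 2 females with an added Y, 25 of the 30 entry strands were higher in XXYcongo than in XXYohio ovaries and none was lower, with a median log2 difference of 1.37 and a range from 0.13 to 2.61 on the deposited scale. Of all features 44.9% were higher and 4.17% lower (median 0.83), and of the other TE class entries 71.8% were higher (median 1.06). In 29 members the groups did not overlap, against 56.6% of all features, with 17.3% the other way. The 5 that did not pass were MICROPIA_LTR Minus (1.40, limma adjusted p = 0.0675), MICROPIA_LTR Plus (0.62, 0.0981), MDG1_LTR Plus (adjusted p = 0.161), STALKER3_LTR Plus (0.67, 0.283) and MDG1_I Plus (0.13, 0.751). With TMM scaling 14 were higher, against 18% higher and 20.7% lower of all features, and with the TE class total 5 were higher and 1 lower, against 9.1% and 26.3%. On the TE class scale MDG1_I Plus was lower in XXYcongo than in XXYohio ovaries (-0.93, limma adjusted p = 0.0420). With spike-in scaling none passed in limma (3 at an unadjusted p under 0.05), and the median was 1.04. The spike-in totals varied within groups. On the deposited scale they were 173930 and 88873 in XXYcongo, 59852 and 159653 in XXYohio and 294323 and 190652 in XX ovaries. STALKER4_LTR Minus (0.90, limma adjusted p = 0.0237) was called here and lost the call without XXYcongo replicate 2 (0.47, 0.249) or XXYohio replicate 1 (0.66, 0.142).

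Between XXYohio and XX ovaries 1 of the 30 entry strands passed. In limma none was called higher and DM412B_LTR Plus was called lower, and no other had an unadjusted p under 0.05; edgeR and DESeq2 called none, with 1 each at an unadjusted p under 0.05 (DESeq2 gave DM412B_LTR Plus no adjusted p). Of all features 2.53% were called higher and 0.759% lower, and of the other TE class entries 5.83% and 1.29%. The member median was -0.08, the median of the other TE class entries -0.00 and that of all features 0.10. The groups did not overlap in 10 members, 4 of them higher and 6 lower in XXYohio, against 28.6% and 18.3% of all features. The 4 were both strands of MICROPIA_I, MICROPIA_LTR Plus and STALKER3_LTR Plus, and the 6 were both strands of DM412_I and DM412B_LTR, DM412_LTR Minus and BLOOD_I Plus. The STALKER3_LTR Plus value was 1.09 ± 0.51 (limma adjusted p = 0.357). With spike-in scaling the member median was 1.19 and that of all features 1.33. The comparisons of XXYcongo and of XXYohio with XX share the 2 XX libraries, and those with XXYohio share its libraries.

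In testes no member passed in any comparison. Of the 29 entry strands, 23 reached a mean value of 5 and were tested, and none was called in XYYcongo against XY, in XYYohio against XY or in XYYcongo against XYYohio. At an unadjusted p under 0.05 limma had 1, 1 and 0 in these 3 comparisons, edgeR 1, 2 and 0 and DESeq2 1, 1 and 0, with none past adjustment in either tool. Of the 618 features tested, 1.13% were called higher and 0.485% lower in XYYcongo against XY, 0.647% higher and 0% lower in XYYohio against XY, and 0% either way in XYYcongo against XYYohio. Of the 206 other TE class entries, 1.46% were called higher and 0.971% lower in XYYcongo against XY, 1.46% and 0% in XYYohio against XY, and none in XYYcongo against XYYohio. Member medians were 0.12, -0.08 and 0.22 in these comparisons, against 0.25, 0.04 and 0.23 for all features. The groups did not overlap in 3 members higher and 4 lower in XYYcongo against XY (24.8% and 8.25% of all features), in 1 higher and 3 lower in XYYohio against XY (13.4% and 11.2%), and in 3 higher and none lower in XYYcongo against XYYohio (13.8% and 7.77%). The standard errors, 0.65 to 0.75, were wider than the 0.20 to 0.63 of the ovary members, so a difference of the size seen in ovaries could be missed. The 6 not tested were BLOOD_LTR Plus, DM412B_LTR Plus, DM412_LTR Plus, STALKER3_LTR Minus and both strands of MDG1_LTR.

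The 2 testis differences with an unadjusted p under 0.05 in limma were in sparse entries. STALKER2_LTR Minus had values of 14.7 and 17.9 in XYYcongo testes, 8.22 and 4.80 in XYYohio testes and 1 and 13.3 in XY testes. XYYcongo minus XY was 1.69 ± 0.71 (limma adjusted p = 0.315), and 3.11 without XY replicate 2, when it passed (0.0246). Its XY replicates thus differed from each other more than the XYYcongo replicates did. STALKER2_LTR Plus, at 8.99 and 1.70 in XYYcongo, 18.1 and 5.86 in XYYohio and 9 and 13.7 in XY testes, was at -1.22 for XYYcongo minus XY (limma adjusted p = 0.708). BLOOD_I Plus had 8.99 and 2.55 in XYYcongo testes, 18.9 and 4.27 in XYYohio testes and 3 and 1.61 in XY testes. XYYohio minus XY was 1.66 ± 0.75 (limma adjusted p = 0.772).

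Among the internal entries of the testis, replicates of a group often differed by as much as the groups did. MDG1_I Minus had values of 210.0 and 334 in XYYcongo testes, 292 and 181 in XYYohio testes and 132 and 236 in XY testes. MDG1_I Plus had 71.1 and 54.5 in XYYcongo, 60.0 and 26.1 in XYYohio and 21 and 29.8 in XY testes. The Plus strand did not overlap between XYYcongo and XY, and its log2 difference was 1.28 (limma adjusted p = 0.506). DM412_I Minus had 463 and 663 in XYYcongo, 549 and 305 in XYYohio and 258 and 549 in XY testes. DM412_I Plus had 18.0 and 24.7 in XYYcongo, 12.3 and 10.1 in XYYohio and 17 and 27.8 in XY testes. Both XYYohio libraries lay below the other 4 on the Plus strand, with XYYohio minus XY at -0.90 (limma adjusted p = 0.929). BLOOD_I Minus had 61.3 and 88.5 in XYYcongo, 108 and 41.6 in XYYohio and 40 and 62.9 in XY testes, and XYYcongo minus XY was 0.54.

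MDG3_DM Minus had values of 1192 and 1566 in XYYcongo testes, 1356 and 904 in XYYohio testes and 929 and 1957 in XY testes. MDG3_DM Plus had 142 and 170.2 in XYYcongo, 155 and 88.0 in XYYohio and 156 and 233 in XY testes. The lowest and the highest Minus values were both from groups other than XYYcongo, and XYYcongo minus XY was 0.02 on that strand. STALKER4_I Minus had 1024 and 1318 in XYYcongo, 1174 and 690.4 in XYYohio and 686 and 1368 in XY testes. STALKER4_I Plus had 102 and 130.2 in XYYcongo, 149.6 and 86.9 in XYYohio and 91 and 131 in XY testes. The 3 groups overlapped on both strands. STALKER2_I Minus had 129 and 226 in XYYcongo, 146 and 122 in XYYohio and 90 and 199.6 in XY testes. STALKER2_I Plus had 19.6 and 29.8 in XYYcongo, 31.2 and 20.8 in XYYohio and 31 and 37.5 in XY testes. The Plus values of XYYcongo lay below those of XY, at -0.48 (limma adjusted p = 0.944). MICROPIA_I Minus had 295 and 420.4 in XYYcongo, 460.3 and 314 in XYYohio and 178 and 390.3 in XY testes. MICROPIA_I Plus had 91.5 and 86.8 in XYYcongo, 78.9 and 51.7 in XYYohio and 57 and 69.8 in XY testes. Both XYYcongo libraries exceeded both XY libraries on the Plus strand, at 0.49 (limma adjusted p = 0.944).

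Most of the small RNAs of these elements lay on the Minus strand. Over all members the Minus share was 85.1% to 88.6% in ovary libraries and 84.1% to 89.0% in testis libraries. Over the other TE class entries it was 69.9% to 72.2% in ovaries and 39.2% to 42.0% in testes. Both are shares of pooled reads, so the most abundant entries weigh most. Minus shares of single other TE class entries were not compared. The member entries were not alike. Over the 6 ovary libraries the median Minus share was 94.2% for STALKER4_I, 93.3% for MDG1_I, 93.0% for STALKER2_I and 92.1% for DM412_I. It was 81.5% for MDG3_DM, 71.3% for MICROPIA_I and 55.7% for BLOOD_I. The LTR of the last 2 elements leaned the other way, with medians of 13.5% for MICROPIA_LTR and 36.7% for BLOOD_LTR. The blood internal part differed between the tissues, with 52.7% to 67.5% Minus in ovary libraries and 85.1% to 97.5% in testis libraries. MICROPIA_LTR kept a low Minus share in both, at 4.35% to 17.8% in ovaries and 10.1% to 22.2% in testes. These ranges are descriptions, with no test between tissues.

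**Figure D4:**
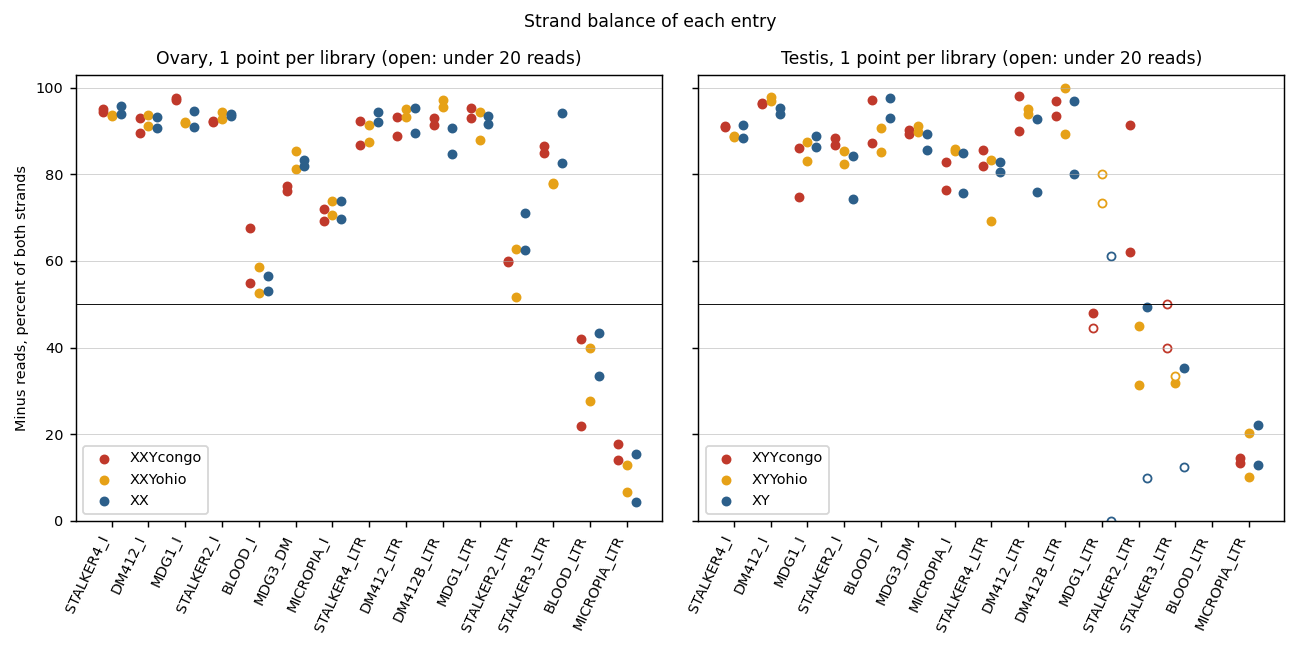
Percent of an entry's reads on the Minus strand (y axis) for each entry (x axis) in each library (points), in ovaries and testes, coloured by group; open points rest on under 20 reads. MICROPIA_LTR lies at 22.2% or lower in both tissues, and BLOOD_I lies at 52.7% to 67.5% in ovaries and 85.1% to 97.5% in testes.

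The strand balance of an entry was compared as the log2 ratio of its Minus to its Plus value. MDG1_I reads were 97.6% and 97.0% Minus in XXYcongo ovaries, 91.9% and 92.1% in XXYohio ovaries and 94.5% and 91.0% in XX ovaries. The ratio was higher in XXYcongo than in XX ovaries by 1.45 ± 0.29 (limma over 163 entries with both strands, adjusted p = 0.0481). This was 1 call among 15 members, a share near the 7.36% higher and 0.613% lower of all such entries. The ratio does not depend on how libraries are scaled beyond the pseudocount. The call ended without XXYcongo replicate 1 (adjusted p = 0.224), XXYcongo replicate 2 (0.150), either XXYohio replicate (0.0530 each) or XX replicate 2 (0.0835), with values from 1.07 to 1.60, and with the replicate number as a block (1.45, 0.0505). Without XX replicate 1 it was kept (1.84, adjusted p = 0.0380). XXYcongo minus XXYohio was 1.65 ± 0.29 (limma adjusted p = 0.0763). DM412B_LTR, at 97.1% and 95.5% Minus in XXYohio ovaries and 84.7% and 90.7% in XX ovaries, had a difference of 1.67 ± 0.34 that did not pass (limma adjusted p = 0.0655). In limma, no member was called in XXYohio against XX (1 at an unadjusted p under 0.05, with 1.84% of all pairs called higher and 3.07% lower) nor in XXYcongo against XXYohio (3 unadjusted, with 0.613% and 0%). None of the 10 pairs tested in testes was called in limma, with 1 unadjusted in each comparison with XY and 0 in XYYcongo against XYYohio. Of all 119 testis pairs, 3.36% were called higher and 2.52% lower in XYYohio against XY and 0% in the other comparisons. The other strand balances, MDG3_DM at 76.0% and 77.3% in XXYcongo, 81.1% and 85.3% in XXYohio and 81.9% and 83.3% in XX ovaries among them, did not pass.

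The ratio of LTR to internal reads of an element on a strand was also compared, in 12 member pairs in ovaries and 7 in testes. In limma none was called in any comparison, with 2 at an unadjusted p under 0.05 in XXYcongo against XX, 1 in XXYcongo against XXYohio, 1 in XYYcongo against XY and 0 in the others. The 2 in XXYcongo against XX were MDG1 Plus at 1.37 and MICROPIA Plus at -0.72, each with an adjusted p of 0.185. Calls over all pairs were 1.16% higher and 2.33% lower there, 0% and 2.33% in XXYohio against XX, 0% and 2.17% in each testis comparison with XY, and 0% in the others. The testis value was STALKER2 Minus, at 1.34 ± 0.55 for XYYcongo minus XY (limma adjusted p = 0.200), which passed without XY replicate 2 (2.19, 0.0194).

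As a share of TE class reads, the members made up 10.8% and 10.4% in XXYcongo ovaries, 7.87% and 8.15% in XXYohio ovaries and 9.07% and 9.07% in XX ovaries. The 3 ovary groups did not overlap, with XXYcongo highest and XXYohio lowest. For a single value of this kind an exact two-sided permutation test of 2 libraries against 2 can give no p under 0.333, so the shares are given without a test. The share was 4.23% and 4.06% in XYYcongo testes, 4.30% and 4.19% in XYYohio testes and 3.88% and 4.39% in XY testes, where the groups overlapped. The 95% Wilson intervals of these shares were at most 0.138 percentage points wide on either side and cover counting error only. As a share of all reads outside the spike-ins, the members were at 4.91% and 4.39% in XXYcongo, 1.80% and 2.38% in XXYohio and 2.34% and 2.03% in XX ovaries.

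Among the elements, the share of TE class reads moved in different ways between the ovary groups. These are shares of reads and not levels per length, since the files give no entry lengths. DM412 took 2.73% ± 0.510 in XXYcongo ovaries, 1.58% ± 0.110 in XXYohio ovaries and 2.00% ± 0.0699 in XX ovaries (SD, n = 2 each). MDG1 took 1.11% ± 0.171 in XXYcongo, 0.711% ± 0.0468 in XXYohio and 0.743% ± 0.0232 in XX ovaries, and BLOOD 1.30% ± 0.0377, 0.965% ± 0.0647 and 1.03% ± 0.0112 in the same groups. STALKER2 took 0.721% ± 0.00511 in XXYcongo, 0.603% ± 0.0307 in XXYohio and 0.648% ± 0.00194 in XX ovaries. For these 4 elements both XXYcongo libraries lay above the other 4 libraries, and for MDG3, MICROPIA, STALKER3 and STALKER4 they did not. The same count was not made for the other elements of the TE class, so nothing stands beside it for comparison. STALKER4 took 3.95% ± 0.483 in XXYcongo, 3.38% ± 0.0724 in XXYohio and 3.93% ± 0.100 in XX ovaries, so that XXYcongo and XX differed by less than the spread between XXYcongo replicates. MDG3 was at 0.403%, 0.393% and 0.434%, MICROPIA at 0.370%, 0.340% and 0.271% and STALKER3 at 0.0339%, 0.0280% and 0.0267% in XXYcongo, XXYohio and XX ovaries.

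**Figure D5:**
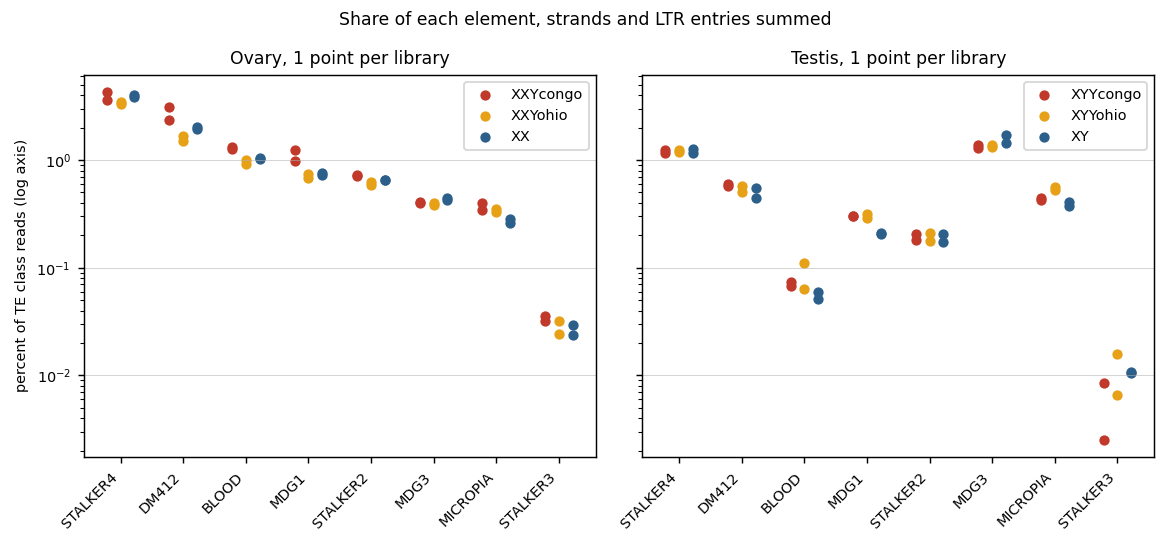
Percent of TE class reads (log y axis) taken by each element (x axis), internal and LTR entries and both strands summed, in each library (points), for ovaries and testes. STALKER4 and DM412 take the largest shares in ovaries, and MDG3 and STALKER4 in testes.

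In testes MDG3 and STALKER4 took the largest shares of the members. MDG3 took a mean of 1.34% of TE class reads in XYYcongo, 1.34% in XYYohio and 1.57% in XY testes, against 0.393% to 0.434% in the ovary groups. STALKER4 took 1.21% in XYYcongo, 1.22% in XYYohio and 1.22% in XY testes. MDG1 took 0.302% ± 0.00259 in XYYcongo, 0.304% ± 0.0193 in XYYohio and 0.208% ± 0.00394 in XY testes (SD, n = 2 each). MICROPIA took 0.439% in XYYcongo, 0.542% ± 0.0208 in XYYohio and 0.390% ± 0.0235 in XY testes. BLOOD took 0.0711% in XYYcongo, 0.0880% in XYYohio and 0.0554% in XY testes, against 0.965% to 1.30% in the ovary groups. For MDG1, MICROPIA and BLOOD all 4 libraries with an added Y lay above both XY libraries, and for MDG3 all 4 lay below them. For DM412, STALKER2, STALKER3 and STALKER4 they overlapped. BLOOD rests on 45 to 163 recovered reads per library, and no entry of any of these elements passed in testes. How often shares of other TE class elements part in this way was not counted, so these orders are descriptions only. The 2 tables list different numbers of TE class entries, so shares are set side by side across tissues without a test.

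In the BDGP6.54 annotation, matched by name alone, few copies of these elements are listed on the Y chromosome. DM412 has 44 and none on the Y, MDG1 45 with 1 on the Y, BLOOD 29 with 1, STALKER3 7 with 2, and MDG3, MICROPIA, STALKER2 and STALKER4 have 23, 15, 17 and 38 with none. That assembly stands for one reference strain and not for Ycongo or Yohio. Only copies that were assembled and named are counted, so these numbers do not give how many copies a Y chromosome carries. In the authors' deposited table, an analysis of variance p-value was under 0.05 for 20 of the 30 ovary members and for 36.7% of all ovary features, and for 0 of 29 testis members and 2.72% of all testis features. The smallest in the authors' deposited table was 0.0014 for MDG3_DM Plus in ovaries and the largest ovary value 0.735 for MDG1_I Plus.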

How the data were processed

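Small RNA libraries of 12 gonad samples were read from 2 deposited tables of repeat, tRNA and snoRNA entries, 1 for ovaries and 1 for testes. Reads were trimmed with Trim Galore and aligned with Bowtie 1.1.1, per the submitters' processing notes. How the authors chose the scale factors, and which genome build, element library and treatment of multiply matching reads they used, is not given in the sources used here. XX and XY replicate 1 hold read counts as deposited. The other 10 libraries hold the authors' normalised signal, reads times a constant per library: dividing by the value of 1 read gave whole numbers for 100% of values within 0.01 of a read, which gave the read numbers used for shares and depth. The authors deposited an ANOVA p-value per entry. The tables were scaled separately, so tests run only within a table. No sample column was left unused.

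The Yohio groups were read from the columns headed Cs, by elimination. Values were tested as log2(value + 1) in limma 3.58.1 (R 4.3.3) with a trended prior, all 3 genotypes of a tissue in one model, over all entries with a mean of at least 5 in the 6 libraries, spike-ins left out. Adjusted p-values are Benjamini-Hochberg over all entries of a comparison, with a threshold of 0.05; a log2 difference on this scale understates the change of low entries. The log2 ratios of Minus to Plus and of LTR to internal values were tested in the same way. On recovered reads, edgeR 4.0.16 quasi-likelihood called 177 entries higher and 149 lower in XXYcongo against XX ovaries, and DESeq2 1.42.0 called 186 and 156. The method was run on simulated counts with one fixed spread and as many entries raised as lowered. That run does not cover a one-sided shift of the TE class such as that in XXYcongo ovaries. Alternatives were TMM, TE class total, total outside spike-ins, snoRNA and spike-in scaling, a pseudocount of 5, no filter and a filter at 20, no trend, a replicate block and the omission of each library. The limma p-values set a group difference against the spread between replicates, pooled over the 3 genotypes of a tissue with information shared over entries. Nothing in the labels says how replicates were reared apart, so that spread covers only these samples.

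Members, marker lists and comparisons were chosen with earlier results of these data known. Values in every library are given for both strands of internal entries, for up to 12 called members per comparison by smallest adjusted p, for members called against the majority direction and for members with a called balance. Other members are named by fold or range, and some LTR entries were given in full after their values were seen. No element sequences were used here.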

Additional observations from a re-analysis of the deposited data

Results flagged for a closer look

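For 5 entry strands, both libraries with an added Y lay on one side of both controls in ovaries and on the opposite side in testes. They were 4 of the 23 members tested in both tables for the Congo Y, against 8.46% of the 591 features tested in both, and 1 of 23 for the Ohio Y, against 3.72%. The 4 were all Plus entries of Stalker elements that may share reads, so they may not be separate cases. For the Congo Y, STALKER2_I Plus was at a log2 difference of 1.51 in XXYcongo against XX ovaries and -0.48 in XYYcongo against XY testes. STALKER2_LTR Plus was at 1.66 in ovaries and -1.22 in testes. STALKER3_LTR Plus was at 1.76 and -1.15, and STALKER4_LTR Plus at 1.19 and -0.46, in the same order of tissues. For the Ohio Y, BLOOD_I Plus was at -0.087 in XXYohio against XX ovaries and 1.66 in XYYohio against XY testes. In limma the 4 Congo values in ovaries passed an adjusted p of 0.05, and the other values did not. The difference between the tissues was not tested. With 2 libraries a group, testis values of 1.70 to 37.5 on the deposited scale lie behind the Stalker entries. In XYYcongo testes, STALKER2_LTR Plus had 11 and 2 reads and STALKER3_LTR Plus had 6 and 2.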

How the results depend on the processing

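For XXYcongo against XX ovaries, the count of members called higher was 8 with TMM scaling, 4 with the TE class total, 8 with edgeR, 9 with DESeq2 and 17 to 26 with 1 library left out. The median log2 difference was 0.63 with TMM, 0.31 with the TE class total, 1.16 with the total outside spike-ins, 1.68 with snoRNA, 2.31 with spike-ins, 0.64 with edgeR and with DESeq2, and 1.14 to 1.55 with 1 library left out. For XXYcongo against XXYohio, the count was 14 with TMM, edgeR and DESeq2, 5 (and 1 lower) with the TE class total, 0 with spike-ins and 18 to 26 with 1 library left out; the median was 0.69, 0.34, 1.07, 1.52 and 1.04 with TMM, the TE class total, the total outside spike-ins, snoRNA and spike-ins, 0.71 with edgeR, 0.65 with DESeq2 and 1.21 to 1.51 with 1 library left out. Scaling to the TE class total turned the sign of MICROPIA_LTR Plus (-0.14), MDG3_DM Minus (-0.22) and BLOOD_LTR Minus (-0.0277) in XXYcongo against XX, and of STALKER4_I Plus (-0.0346), MDG1_I Plus (-0.93), STALKER4_LTR Plus (-0.19), MDG3_DM Minus (-0.0821) and STALKER4_LTR Minus (-0.16) in XXYcongo against XXYohio; 3 and 2 further members, not called on either scale, also changed sign in these comparisons. For XXYohio against XX, the 1 lower call became 0 with snoRNA or spike-in scaling, edgeR, DESeq2 (which gave that entry no adjusted p) and limma without the trend (0 to 1 with 1 library left out), and the median was 0.054 with snoRNA, 1.19 with spike-ins and -0.25 to 0.13 with 1 library left out. Members with a changed strand balance numbered 1 with a filter at 20 and 0 to 2 with 1 library left out in XXYohio against XX, 0 to 1 in XXYcongo against XX, and 1 with a pseudocount of 5 or a filter at 20 and 0 to 1 in XXYcongo against XXYohio. In testes, leaving out 1 library gave a median of -0.49 to 0.45 in XYYohio against XY, 0 to 1 calls in XYYcongo against XY and 0 to 1 changed LTR balances there. The member share over all reads outside spike-ins, in place of TE class reads, was 2.13 times that of XX in XXYcongo, 0.958 times in XXYohio, and 0.868 times that of XY in XYYohio, against 1.17, 0.883 and 1.03. The cause of these changes was not tested. Of the values for single members under an alternative, 2606 stayed on the same side of the threshold, 206 no longer passed, 7 newly passed and 8 are the turned signs listed above by name.

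The labels do not say what a shared replicate number stands for, and with 2 numbers the pairing was not taken as given. With the replicate block, 27, 26 and 1 members were called in XXYcongo against XX, XXYcongo against XXYohio and XXYohio against XX and 0 in testes, and the MDG1_I strand balance call was lost (adjusted p = 0.0505; 0 members). Correlations of same-numbered deviations were 0.02 to 0.25 in ovaries and 0.35 to 0.41 in testes. Testis entries with few reads limit what could be detected there.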
